A study of Mus musculus with 171 samples.

Results

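The genes studied here are the mouse genes named as CD antigens: every gene on the array whose symbol begins with Cd and a digit, without Cd14 and Cd36. A total of 28 genes of the 5755 genes with a probe met this rule, on 37 probes of 8734. For each gene the probe with the most values was used, and the lowest probe number where several had as many. No expression value entered the choice of probe, while the members were chosen with earlier results of these data known. CD numbers were given to molecules that antibodies recognise on leukocytes, so they name very different proteins. All members but Cd2ap and Cd2bp2 are membrane proteins. These 2 encode proteins inside the cell that bind the tail of the T cell antigen CD2, and their symbols brought them into the rule.

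The data are a mouse tissue survey of two-colour arrays over 88 sources, 83 of them with 2 arrays and 5 with 1, each array set against a universal mouse reference RNA. The lymphoid and blood sources were thymus (normal adult), spleen (labelled C57), unstimulated lymph node, lymph node stimulated with complete Freund's adjuvant, ficoll-purified peripheral blood mononuclear cells and, on 1 array, column-purified CD4+ T cells activated with antibodies to CD3 and CD28. The other sources used in tests were normal adult organs, synovium (normal, acute arthritis, chronic arthritis), fetal liver of day 14 labelled hematopoietic, liver of fed adults, adult kidney, FVB/N kidney with folic acid injury, lactating and involuting mammary gland, and tumours of the duodenum, jejunum and colon with normal gut. The normal adult organs include uterus in diestrus, in estrus and on day 4.5 of pregnancy, and hair follicle in anagen and catagen. Descriptions over all 88 sources also used transgenic hyperdynamic heart and its control, liver 6 h and 24 h into regeneration, and liver 6 h after sham surgery. They further used ileum after bowel resection or sham, and organs from embryonic day 13.5 to postnatal day 24. One of the 3 normal sources of the small intestine, proximal jejunum 46, is labelled WT. Apart from that and the 2 strain names given here, no strain, sex, genotype or age in weeks was read from the labels of the groups used in tests. The labels do not tell how the tumours arose or whether replicate arrays used different mice. For pairs of sources the p-values therefore measure the spread between arrays, which may be technical. For groups of sources, fitted on source means, they measure the spread between sources.

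Each value is a deposited log ratio. The labels do not state its base or direction, and it was read as log2 of source over reference, the likely direction, since marker genes were highest in their own organs. Thy1 was highest in thymus at 4.01 and 5 neuron and glia genes were highest in hippocampus at a mean of 5.36. Of 8729 probes with values, 99.8% had a median over arrays within 0.001 of 0, so each probe is centred on its own median: a value says how a source stands among the sources for that gene, and levels of different genes are not compared. Arrays held 5137 to 8658 values, the 2 arrays of a source correlated at 0.381 to 0.987 (median 0.869), and the second spleen array lacked values for Cd6, Cd44, Cd72, Cd86, Cd96, Cd109, Cd209b and Cd2bp2. In these whole tissues, fewer cells of a type and less RNA per cell cannot be told apart.

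B cells carry an antigen receptor whose signal passes through the paired chains CD79a and CD79b, while T cells signal through the CD3 complex, to which the zeta chain CD247 belongs. Around these receptors sit molecules that set the threshold of activation, such as CD72 on B cells, CD6 and CD96 on T cells and the ligand CD86 on antigen-presenting cells. The tetraspanins (CD9, CD37, CD53, CD81, CD151) gather receptors and integrins into membrane domains. CD37 and CD53 are made by leukocytes, the other 3 by many tissues. Other CD antigens are adhesion or protective molecules of epithelium, vessel and stroma: CD44 binds hyaluronan, CD34 marks blood-forming progenitors and endothelium, CD47 restrains engulfment by macrophages, and CD55 and CD59 guard cells against complement.

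The 250 bases before the start of 4 members are shown, taken from RefSeq (GRCm38.p6), because 3 of them (Cd37, Cd72 and Cd79a) were high together in lymphoid sources and the fourth, Cd9, was not. Capitals mark AGGAAG, the core of ETS factor sites, and GGGCGG, the GC box, on either strand. The Cd37 window lies at chr7:45238840-45239089 (minus strand), that of Cd72 at chr4:43454627-43454876 (minus), that of Cd79a at chr7:24897247-24897496 (plus) and that of Cd9 at chr6:125494761-125495010 (minus). The ETS core starts 24 bases before the gene start in Cd37, 48 in Cd72, 55 in Cd79a and 203 in Cd9.
Cd37: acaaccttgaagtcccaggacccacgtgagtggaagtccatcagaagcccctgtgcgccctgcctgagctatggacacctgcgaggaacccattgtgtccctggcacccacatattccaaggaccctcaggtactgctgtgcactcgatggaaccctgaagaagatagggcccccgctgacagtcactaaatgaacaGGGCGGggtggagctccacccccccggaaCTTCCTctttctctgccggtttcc
Cd72: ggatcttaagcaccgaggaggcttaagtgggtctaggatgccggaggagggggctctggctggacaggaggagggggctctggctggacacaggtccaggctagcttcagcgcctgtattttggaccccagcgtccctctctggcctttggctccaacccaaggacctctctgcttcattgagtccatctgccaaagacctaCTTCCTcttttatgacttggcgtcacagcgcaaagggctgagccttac
Cd79a: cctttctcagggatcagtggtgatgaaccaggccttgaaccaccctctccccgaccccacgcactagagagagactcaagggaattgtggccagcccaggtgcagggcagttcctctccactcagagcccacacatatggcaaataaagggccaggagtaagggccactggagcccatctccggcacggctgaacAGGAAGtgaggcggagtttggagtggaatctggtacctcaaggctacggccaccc
Cd9: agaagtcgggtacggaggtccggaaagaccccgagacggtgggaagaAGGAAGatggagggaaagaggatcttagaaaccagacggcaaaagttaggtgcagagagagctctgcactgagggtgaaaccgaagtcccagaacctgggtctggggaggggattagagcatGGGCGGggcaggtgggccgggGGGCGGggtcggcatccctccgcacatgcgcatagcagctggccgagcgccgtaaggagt

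A promoter was in the table for 21 members (not for Cd79b, Cd6, Cd86, Cd24a, Cd248, Cd109 and Cd1d1). In this window the ETS core was found in 10 of the 21 and in 29.5% of all 32851 promoters, and the GC box in 7 of the 21 and in 32.7% of all. The TATA box (TATAAA) was found in 1 member, Cd96, and in 12.4% of all, and the E-box CAGGTG in 5 members and in 17.2% of all. The ETS core was present in Cd2bp2, Cd34, Cd44 and Cd9 as well as in leukocyte genes, and absent from Cd53, Cd84 and Cd96. CpG pairs numbered 8 in Cd37, 6 in Cd72, 6 in Cd79a and 16 in Cd9, against a median of 6 over all promoters. A match describes the sequence and was not tested as a binding site.

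**Figure D1:**
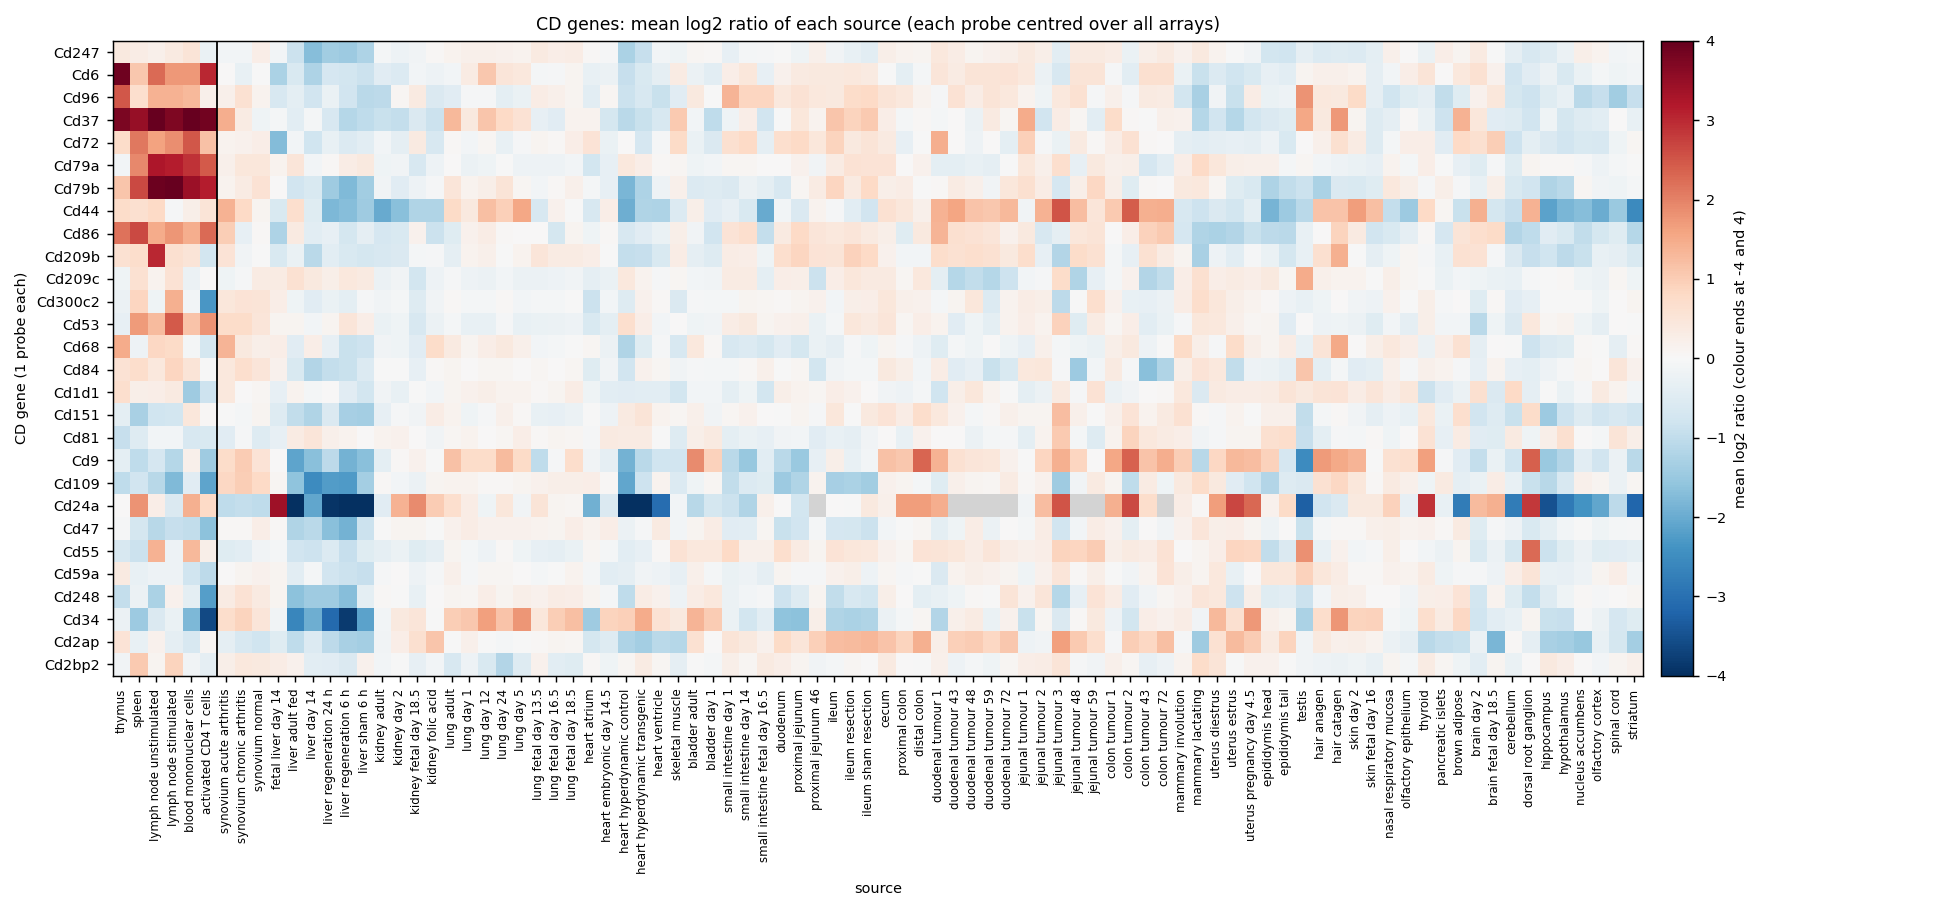
Mean log2 ratio of each of the 28 CD genes (rows, grouped by role) in the 88 sources (columns); the 6 lymphoid and blood sources stand left of the black line, and grey marks a source without a value. Cd37, Cd6, Cd72, Cd79a, Cd79b and Cd86 are red in the lymphoid block, while Cd24a runs from 3.40 in fetal liver to -4.76 in the control of the hyperdynamic heart.

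Over all 88 sources, 12 of the 28 members had their highest mean in a lymphoid or blood source, and 10 had at least 3 of the 6 such sources among their 6 highest. The 6 include the single array of activated CD4+ T cells. The same shares over all genes were not computed, so these counts show no excess of the members. The span from the highest to the lowest source was 1.96 to 8.16 with a median of 3.53, beside a median of 2.90 over 5751 genes. The spread of arrays within a source was smaller, with an SD of 0.15 to 0.44 (median 0.28). Cd59a, an inhibitor of the complement membrane attack complex, had the narrowest span and Cd24a, a small glycosylated protein of immature blood cells and epithelium, the widest.

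The lymphoid and blood sources were set against 38 other sources, called other organs here. Several of these are parts or states of the same organ, such as brain regions, gut segments and uterus stages. Limma took each source as an independent unit, both lymph nodes included, so the p-values may be too small. Against the 38, the 5 lymphoid and blood sources with 2 arrays (thymus, spleen, both lymph nodes, blood) had 11 members higher (13.3% of all probes tested were) and 3 lower (6.01% were). That is 14 of 28, where 19.3% of all probes were called in either direction (limma on source means, adjusted p under 0.05). After quantile normalization the counts were 9 and 0, without Cd247, Cd84 and the 3 lower members. The median difference of the members was 0.40 and that of all probes 0.05. The members that rose are genes of B cells, T cells, antigen-presenting cells or other leukocytes. Not all members of these kinds rose: the myeloid genes Cd68, Cd209c and Cd300c2 and the lipid-presenting molecule Cd1d1 were not called. The 3 that fell, Cd109, Cd47 and Cd81, are made by many tissues.

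Among B cell genes, Cd37, the tetraspanin most abundant on mature B cells, had source means of 3.77 in thymus, 3.47 in spleen, 4.2 in unstimulated lymph node, 3.74 in stimulated lymph node and 4.29 in blood. The other organs ran from -1.15 to 1.75 with a median of -0.18, the highest being hair follicle in catagen. All 5 lymphoid sources lay above all other organs, by a mean difference of 3.95 ± 0.33 (SE; limma adjusted p 4e-12).

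Cd79b, a signalling chain of the B cell receptor, was at 1.10 in thymus, 2.63 in spleen, 3.93 and 4.09 in unstimulated and stimulated lymph node and 3.43 in blood, against -1.27 to 0.87 elsewhere. Its groups did not overlap, and the difference was 3.24 ± 0.30 (limma adjusted p 8.5e-11). Its partner chain Cd79a was at 1.92 in spleen, 3.24 and 3.14 in the lymph nodes and 2.89 in blood, but at -0.10 in thymus, within the range of the other organs (-0.74 to 0.81). Cd79a differed by 2.16 ± 0.24 (limma adjusted p 4.6e-09), with 4 of 5 sources above all other organs. Cd72, an inhibitory coreceptor of B cells, was at 0.72 in thymus against 2.10 in spleen and 2.47 in blood, and differed by 1.78 ± 0.24 (limma adjusted p 1.8e-07). The 3 B cell genes Cd79a, Cd79b and Cd72 were thus lowest in the thymus of the 5 sources, whereas Cd37 was as high there as in spleen.

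Among T cell genes, Cd6, a scavenger-type receptor that binds the adhesion molecule ALCAM, was highest in thymus at 3.87 and lowest of the lymphoid sources in spleen at 1.08, with 2.25, 1.72 and 1.73 in the lymph nodes and blood. Other organs reached at most 0.50, and the groups did not overlap (difference 2.29 ± 0.23, limma adjusted p 2.4e-10). Cd96, a receptor of T and natural killer cells for the poliovirus receptor, was at 2.48 in thymus, 0.68 in spleen and 1.31 to 1.39 in the lymph nodes and blood, and differed by 1.72 ± 0.31 (limma adjusted p 6.5e-05). Testis, at 1.80, was the exception among other organs for Cd96, with arrays at 1.46 and 2.14. Cd247, the CD3 zeta chain, moved little, from 0.19 to 0.53 in lymphoid sources against a highest other organ of 0.38. Its difference was 0.46 ± 0.15 (limma adjusted p 0.03), and it was not called without any 1 of thymus, spleen, stimulated node or blood (0.42 to 0.47).

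Of the antigen-presenting and macrophage genes, Cd86, the ligand of CD28 and CTLA4, was at 2.17 in thymus, 2.64 in spleen and 1.47 to 1.76 in the lymph nodes and blood, above every other organ (at most 0.88; difference 2.25 ± 0.28, limma adjusted p 6.1e-08). Cd209b, the lectin SIGNR1 of marginal zone and lymph node sinus macrophages, stood at 3.02 in unstimulated lymph node and at 0.51 to 0.71 in the other 4. Its difference of 1.25 ± 0.30 (limma adjusted p 0.0022) fell to 0.77 and was not called without that source (adjusted p 0.058). Cd84, a SLAM family receptor, differed by 0.63 ± 0.18 (limma adjusted p 0.011), with testis at 1.11 above the lymphoid sources. Cd53 differed by 1.26 ± 0.20 (limma adjusted p 6.5e-06), and its other probes are described below.

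The 3 members that were lower each overlapped the other organs widely. Cd47 was at -1.11 to -0.05 against -1.19 to 0.47 (difference -0.67 ± 0.19, limma adjusted p 0.0085), and its other probe gave -0.02, so that the mean of both was not called (-0.34, adjusted p 0.095). Cd109, a membrane-anchored partner of the TGF-beta receptor, was at -1.76 to -0.45 against -1.62 to 0.83 (-0.82 ± 0.29, limma adjusted p 0.043). The tetraspanin Cd81 was at -0.92 to -0.10 against -0.92 to 0.69 (-0.49 ± 0.17, limma adjusted p 0.042). Cd109 was not called without any 1 of thymus, spleen or either lymph node (-0.88 to -0.63), nor Cd81 without thymus, spleen or blood (-0.47 to -0.37).

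Not called were the myeloid genes Cd68, Cd209c and Cd300c2, the lipid-presenting molecule Cd1d1, the tetraspanins Cd9 and Cd151, the complement regulators Cd55 and Cd59a, and Cd24a, Cd34, Cd44, Cd248, Cd2ap and Cd2bp2. Their differences ran from -0.83 for Cd34 to 1.11 for Cd24a. Among CD antigens with other symbols, 21 of 55 listed were tested, and 8 were higher and 0 lower, Ptprc (CD45), Itgb2 and Selplg among them. Marker genes moved in the same samples: 5 of 5 measured B cell genes, 5 of 7 macrophage genes and 2 of 5 neutrophil genes were higher in these sources. Their part in the results was not tested.

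**Figure D2:**
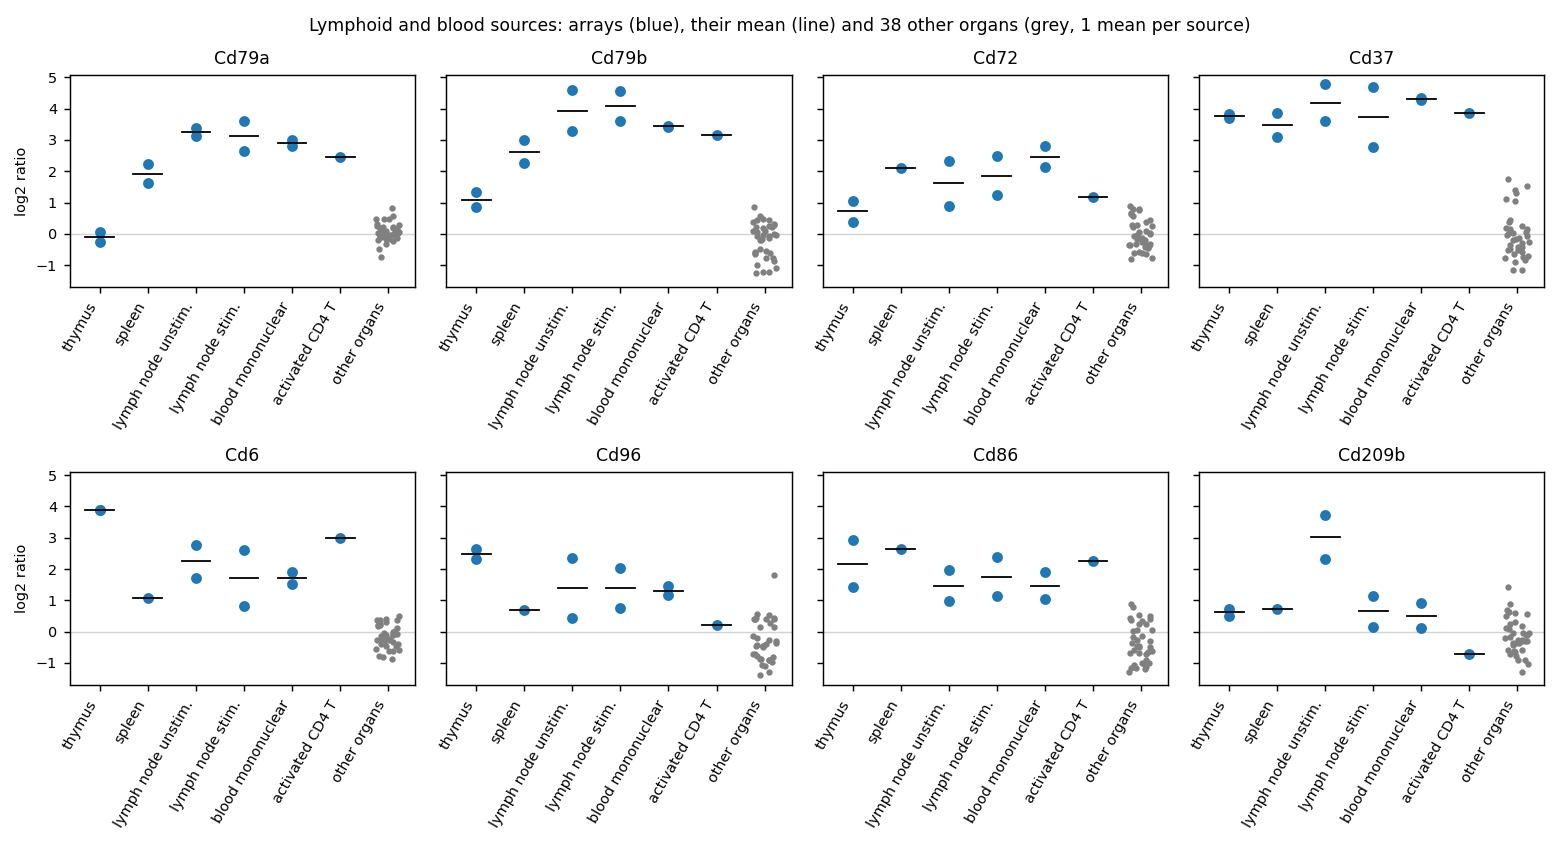
Log2 ratio of 8 CD genes in each array of the lymphoid and blood sources (blue points, black line the mean) and the source means of the 38 other organs (grey). Cd79a is at -0.10 in thymus and between 1.92 and 3.24 in the other 4 tested sources, and Cd209b stands at 3.02 in unstimulated lymph node alone.

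Thymus holds mostly developing T cells and spleen a mixture of B cells, T cells and myeloid cells. Directly compared, 10 members were higher in thymus and 9 lower, 19 of 28 where 58.3% of all probes were called (31.8% higher and 26.6% lower), a share near the background (limma over all arrays, as for the following pairs of sources). The median difference was -0.00 over members and 0.05 over all probes. Of the 3 T cell members Cd6 and Cd96 were higher in thymus and Cd247 was not called (0.09, adjusted p 0.71). Of the 4 B cell members Cd72, Cd79a and Cd79b were lower and Cd37 was not called (0.30, adjusted p 0.45).

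Cd6 read 3.87 and 3.88 on the thymus arrays and 1.08 on the spleen array that had it, and Cd96 read 2.33 and 2.63 against 0.68. The differences were 2.79 ± 0.40 for Cd6 (limma adjusted p 5.8e-09) and 1.80 ± 0.42 for Cd96 (limma adjusted p 0.00015). With 1 spleen value each, these p-values assume that spleen varies between arrays like the other sources, and so do all values below in which a source is left with 1 array. Cd68, the lysosomal glycoprotein of macrophages, read 1.41 and 1.59 in thymus and -0.31 and -0.11 in spleen. Its difference of 1.71 ± 0.24 (limma adjusted p 3.3e-09) stood beside macrophage markers that went both ways: of 7, C1qc and Ctss were higher in thymus, and Tyrobp, Itgax and Itgam lower. Other markers moved too: all 5 erythroid and platelet genes and 4 of 5 neutrophil genes (not Lcn2, which was higher) were lower in thymus, as were 4 of 5 B cell genes (Jchain was higher), while 3 of 5 fibroblast genes were higher. The mean of the erythroid and platelet genes was -0.13 and -0.63 on the thymus arrays and 2.53 and 2.48 on the spleen arrays, and that of the neutrophil genes 0.34 and 0.29 against 3.75 and 3.63. Their part in the differences of the CD genes was not tested.

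Cd34 read -0.27 and -0.19 in thymus against -1.78 and -1.14 in spleen (1.23 ± 0.42, limma adjusted p 0.01). Cd151, a laminin-integrin partner, read -0.36 and -0.40 against -1.45 and -1.14 (0.92 ± 0.16, limma adjusted p 4.2e-07). Both were low in spleen rather than high in thymus. Cd2ap read 0.55 on both thymus arrays and -0.50 and -0.11 in spleen (0.85 ± 0.21, limma adjusted p 0.00035), but its other probes gave -0.24 and -0.75, and the mean of the 3 was not called (0.03).

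Among the lower members, Cd79a read -0.26 and 0.07 in thymus and 2.22 and 1.62 in spleen (-2.02 ± 0.26, limma adjusted p 3.8e-10). Cd79b read 1.34 and 0.85 against 2.99 and 2.27 (-1.53 ± 0.31, limma adjusted p 1.5e-05). Cd24a read -0.10 and 0.12 against 1.74 and 1.85 (-1.79 ± 0.20, limma adjusted p 1.9e-12). All 3 were apart between the organs. Cd72 read 1.06 and 0.39 against 2.10 (-1.38 ± 0.48, limma adjusted p 0.012), and Cd2bp2, which takes part in splicing, -0.36 and 0.07 against 1.06 (-1.20 ± 0.34, limma adjusted p 0.0016). Cd53 read -0.48 and -0.20 against 2.01 and 1.41 (-2.05 ± 0.24, limma adjusted p 4.5e-12), a direction its other probes do not share (mean of the 3: -0.16, not called). The remaining called members were Cd1d1, Cd9, Cd47 and Cd59a (0.44 to 0.66) and Cd81, Cd209c and Cd300c2 (-1.10 to -0.40).

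The array titles hold a letter code, AC or AF, whose meaning is not stated. The thymus arrays had AC and the spleen arrays AF, so code and organ cannot be told apart within the pair. With the code as a term, estimated over all arrays, 18 members were called, and Cd72 was not (-1.01, adjusted p 0.06). Without the first spleen array 20 members could be tested and 12 were called. Cd6, Cd72, Cd96 and Cd2bp2 have no value on the second, and Cd34 (0.91), Cd47 (0.56), Cd300c2 (-0.80) and Cd1d1 (0.37) were not called. Quantile normalization ended the calls of Cd34 (0.85), Cd1d1 (0.25) and Cd2bp2 (-0.72). Without the second thymus array Cd34 (1.19, adjusted p 0.051) and Cd72 (-1.04, adjusted p 0.11) were not called. Cd47, Cd81 and Cd1d1 were not called without the first thymus array (0.48, -0.30 and 0.35), nor Cd81 without the second spleen array (-0.33).

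Blood mononuclear cells shared the spleen arrays as their comparator. Here 6 members were higher and 7 lower, 13 of 28 where 42.6% of all probes were called (14.1% higher and 28.5% lower). The median was -0.17 over members and -0.13 over all probes. After each array was centred on its own median, which shifted all probes by 0.34, the split was 7 higher and 2 lower. Of the lower ones Cd1d1 and Cd2bp2 kept their call. Complement regulator Cd55 and the tetraspanins Cd151 and Cd9 were higher in blood, as were 3 B cell genes.

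Cd55, which speeds the decay of complement convertases, read 1.28 and 1.29 in blood and -1.28 and -0.47 in spleen, a difference of 2.15 ± 0.17 (limma adjusted p 6.3e-19). Its other 2 probes gave 0.62 and 0.82, the same direction and smaller. Cd151 read 0.69 and 0.19 against -1.45 and -1.14 (1.74 ± 0.16, limma adjusted p 1.7e-16), and Cd9, a tetraspanin abundant on platelets, 0.11 and 0.28 against -1.13 and -0.88 (1.20 ± 0.17, limma adjusted p 1.4e-08). Blood also carried red cell transcripts: of 5 erythroid and platelet genes Hba-a1 and Alas2 were higher, at means of 10.1 and 5.44 in blood against 4.98 and 2.18 in spleen. Their part in these results was not tested.

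Cd79a read 3.00 and 2.79 in blood against 2.22 and 1.62 (0.97 ± 0.26, limma adjusted p 0.0018), Cd37 4.26 and 4.33 against 3.86 and 3.08 (0.82 ± 0.33, limma adjusted p 0.039), and Cd79b 3.42 and 3.45 against 2.99 and 2.27 (0.81 ± 0.31, limma adjusted p 0.028). These groups did not overlap, yet none of the 3 was called without the second spleen array (0.67, 0.43 and 0.45), nor Cd37 and Cd79b without either blood array (0.78 to 0.86 and 0.79 to 0.82). Without the first blood array 7 members were called.

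Lower in blood, Cd1d1 read -1.45 and -1.39 against 0.17 and 0.31 in spleen, and blood was its lowest source of all 88 (-1.66 ± 0.17, limma adjusted p 3.2e-14). It was called under every alternative. Cd2bp2 read -0.78 and 0.52 against 1.06 (-1.19 ± 0.34, limma adjusted p 0.003), and Cd86 1.89 and 1.04 against 2.64 (-1.17 ± 0.49, limma adjusted p 0.047). Cd300c2, an activating receptor of the myeloid CD300 family, read -0.16 and -0.08 against 1.17 and 0.57 (-1.0 ± 0.29, limma adjusted p 0.0039). Cd209c, a lectin related to Cd209b, read -0.68 and 0.20 against 0.45 and 0.75 (-0.84 ± 0.21, limma adjusted p 0.00058). Cd53 read 1.20 and 1.10 against 2.01 and 1.41 (-0.56 ± 0.24, limma adjusted p 0.05), and the remaining lower member was Cd59a (-0.49). Each of these except Cd1d1 lost its call without 1 array or another: Cd2bp2 (-0.54), Cd209c (-0.40), Cd53 (-0.61) and Cd59a (-0.46) without the first blood array, Cd86 (-0.74) and Cd53 (-0.50) without the second, Cd300c2 (-0.69) and Cd53 (-0.25) without the first spleen array and Cd59a (-0.30) without the second. Without the second blood array Cd2bp2 was at -1.84 and Cd209c at -1.28, and without the second spleen array Cd53 was at -0.86. Macrophage markers were lower in blood for 5 of 7 genes and neutrophil markers for 4 of 5 (Lcn2 was higher), while 4 of 5 neuron and glia genes were higher. Of 5 B cell markers, Btk was higher in blood and Igh lower.

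Complete Freund's adjuvant, an oil emulsion with killed mycobacteria, drives inflammation in the draining node. In stimulated against unstimulated lymph node, 4 members were higher and 5 lower, 9 of 28 where 39.9% of all probes were called (22% higher and 17.9% lower), with a median of 0.04 over members and -0.02 over all probes. The B and T cell genes Cd37, Cd72, Cd79a, Cd79b, Cd6, Cd96 and Cd247 were not called, with differences of -0.53 to 0.24. The members called were Cd300c2, Cd248, Cd53 and Cd2bp2, higher, and Cd209b, Cd55, Cd24a, Cd2ap and Cd9, lower, a smaller share than that of all probes.

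Cd209b read 2.32 and 3.73 on the unstimulated arrays and 0.14 and 1.15 on the stimulated ones, so that the stimulated node stood near the other lymphoid sources (-2.38 ± 0.34, limma adjusted p 3e-08). Cd55 read 1.25 and 1.55 without and -0.26 and -0.17 with adjuvant (-1.62 ± 0.17, limma adjusted p 1.7e-12), and its other probes gave -0.78 each, with the same sign. Cd24a read 0.29 and 0.26 without and -0.68 and -0.48 with adjuvant (-0.86 ± 0.20, limma adjusted p 0.0003). All 3 kept their call when any 1 of the 4 arrays was left out. Cd2ap (-0.55) and Cd9 (-0.48) lost theirs without either stimulated array (-0.59 and -0.50 for Cd2ap, -0.47 and -0.49 for Cd9) and without the first unstimulated one (-0.64 and -0.45), and Cd2ap also without the second (-0.46). The other probes of Cd2ap gave -0.33 and 0.48, and the mean of the 3 was not called (-0.13, limma adjusted p 0.72).

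Cd300c2 read -0.62 and 0.30 without and 1.19 and 1.64 with adjuvant (1.58 ± 0.29, limma adjusted p 8.5e-06). Cd248 (endosialin), a receptor of stromal fibroblasts and pericytes, read -0.92 and -1.60 without and 0.16 and 0.20 with adjuvant (1.44 ± 0.32, limma adjusted p 0.0002), and its other probe gave 0.67. Both were apart between the conditions. Cd2bp2 read 0.00 and 0.24 against 0.92 and 0.87 (0.78 ± 0.28, limma adjusted p 0.019) and lost its call without either stimulated array (0.75 and 0.80) or the first unstimulated one (0.66). Cd53 read 1.10 and 1.44 against 2.06 and 2.84 (1.18 ± 0.24, limma adjusted p 3.2e-05), while its other probes gave -1.09 and 0.55.

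Cell type markers moved with adjuvant: 4 of 7 macrophage genes, 4 of 5 neutrophil genes (Lcn2 lower) and 3 of 5 fibroblast genes were higher. Also higher were 2 of 5 B cell and plasma cell genes (Igh and Pou2af1) and 3 of 5 erythroid and platelet genes, while 3 of 5 neuron and glia genes were lower. The mean of the macrophage genes was 0.98 and 1.45 on the unstimulated arrays and 1.51 and 2.22 on the stimulated ones. The first stimulated array had the other letter code. Within the shared code, where 1 stimulated and 2 unstimulated arrays remain, 6 members were called, 3 in each direction, and in a fit of the 4 lymph node arrays alone 2 were, Cd248 and Cd55.

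**Figure D3:**
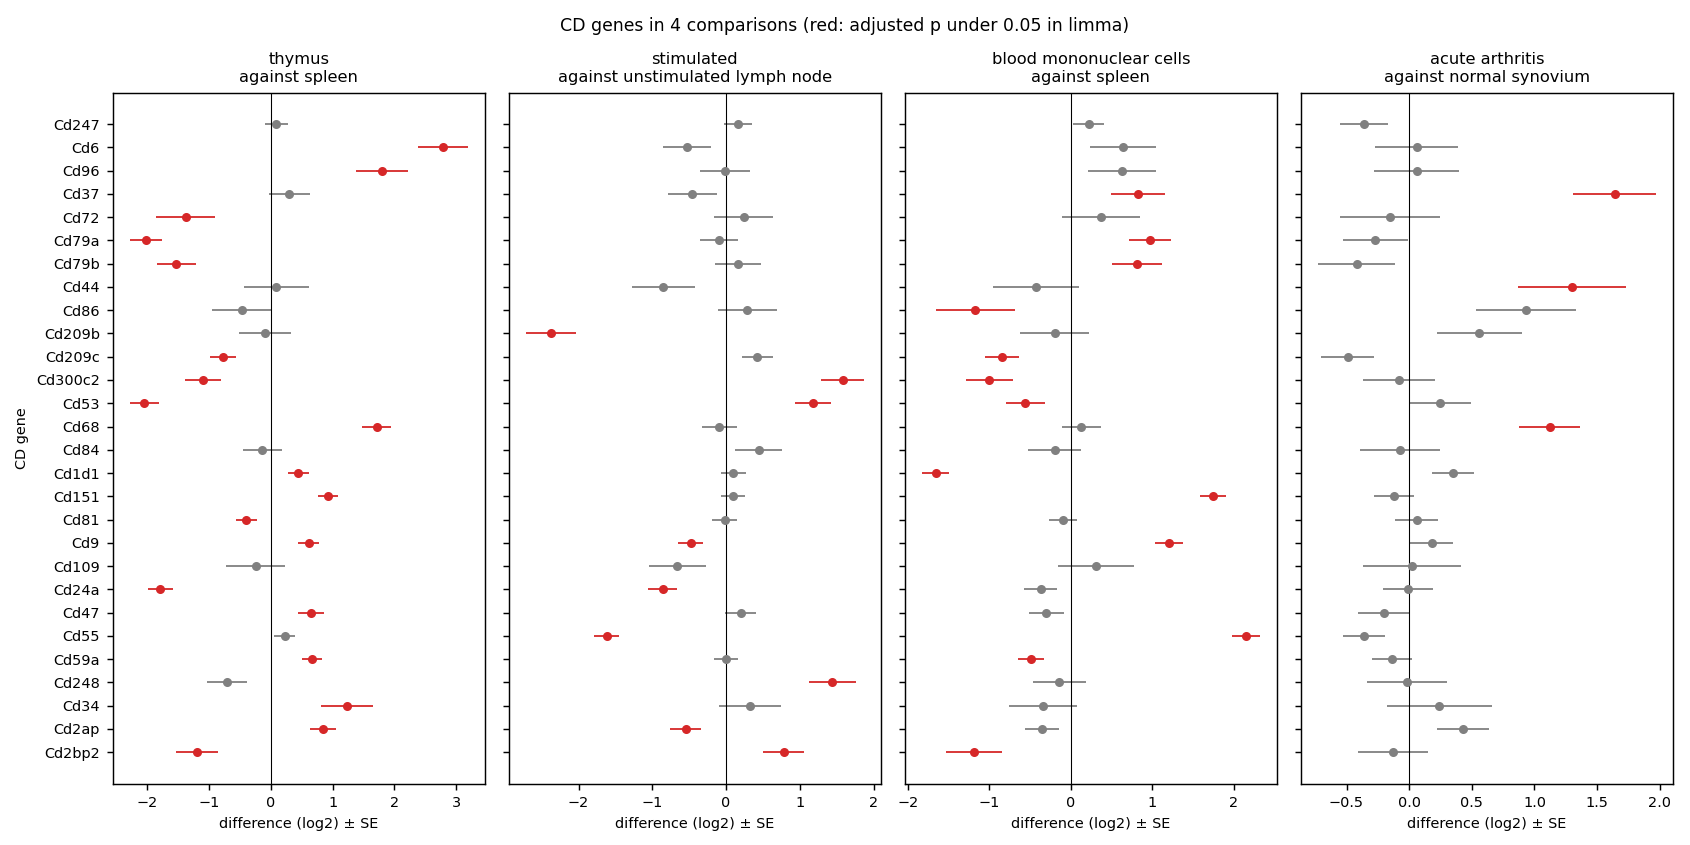
Difference on the log2 scale (points) with its standard error (bars) for the 28 CD genes in 4 comparisons; red marks an adjusted p under 0.05 in limma. The B cell genes Cd72, Cd79a and Cd79b lie left of 0 in thymus against spleen, Cd209b and Cd55 are the lowest in stimulated lymph node, and 3 genes are red in acute arthritis.

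The single array labelled as activated CD4+ T cells has no replicate check. It carried T cell genes, with Cd6 at 3.00 and Thy1 at 3.06, and also B cell genes: Cd79a at 2.45, Cd79b at 3.16, Cd72 at 1.17, Igh at 4.24, Pou2af1 at 3.62 and Ms4a1 at 1.98. Ms4a1 (CD20) was above its spleen mean of 1.52. These B cell values go against the label of purified CD4+ T cells, and the array entered no test. Cd37 was at 3.87 and Cd86 at 2.27. It was the lowest of all sources for Cd248 at -2.20, Cd300c2 at -2.34 and Cd59a at -1.04, and near the lowest for Cd34 at -3.61 and Cd109 at -2.11.

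Cd53, the leukocyte tetraspanin, has 3 probes, and the probe chosen by the rule (598986) disagreed with both others. Across 170 arrays it correlated with them at 0.42 and 0.54, while these (576862 and 620268) correlated with each other at 0.94. In lymphoid sources against other organs the other probes gave 3.41 ± 0.33 and 3.85 ± 0.36 where the chosen one gave 1.26. In thymus against spleen the chosen probe gave -2.05 and the others 1.26 and 0.30, and in blood against spleen it gave -0.56 and they 1.16 and 0.33. Over 88 source means the member most like the chosen probe was Cd79a, at a correlation of 0.89. Genes outside the members were not compared. The identity of the spotted sequences was not tested.

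**Figure D4:**
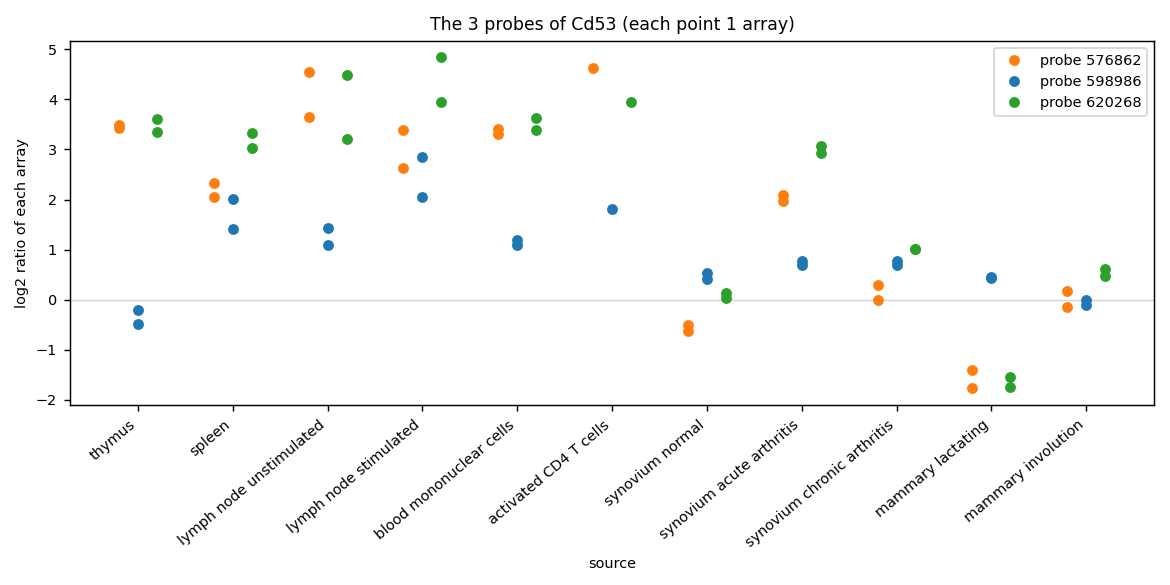
Log2 ratio of each array for the 3 probes of Cd53 in lymphoid, synovial and mammary sources. Probes 576862 and 620268 are high in thymus and in acute arthritis, where probe 598986 is near 0 or below 1.

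Probes of other members also disagreed, with correlations over arrays of -0.01 for the 2 probes of Cd248, 0.04 for Cd84 and 0.10 for Cd47, 0.45 and 0.53 between the chosen probe of Cd2ap and its others, and 0.43 and 0.48 for Cd55. The remaining 22 members have 1 probe each.

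In the arthritis series the joint lining of both stages was set against the same normal synovium. Acute arthritis had 3 members higher and 0 lower, where 9.06% of all probes were called (8.46% higher, 0.602% lower): Cd37, Cd44 and Cd68. Their values in chronic arthritis lay between normal and acute, and there 0 of 28 members were called by limma, where 3.82% of all probes were (3.06% higher, 0.764% lower; 2 members at an unadjusted p under 0.05). The median difference of the members was 0.00 in acute and 0.03 in chronic arthritis, beside -0.08 and -0.06 over all probes. The counts moved with the fit. After quantile normalization limma called 6 members higher in acute and 2 in chronic arthritis, Cd44 and Cd9. In fits of only the arrays compared it called 9 higher and 5 lower in acute arthritis, where 54.7% of all probes were called, and 2 higher in chronic arthritis, Cd37 and Cd44, where 12.9% were.

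Cd37 read -0.21 and -0.16 in normal synovium, 1.41 and 1.49 in acute arthritis and 0.32 and 0.36 in chronic arthritis. The acute difference was 1.64 ± 0.33 (limma adjusted p 0.00017) and the chronic one 0.52 ± 0.33 (limma adjusted p 0.51). Cd68 read 0.23 and 0.25 in normal synovium, 1.39 and 1.32 in acute and 0.43 and 0.32 in chronic arthritis. Its acute difference was 1.12 ± 0.24 (limma adjusted p 0.00043). Between the stages themselves, Cd68 was the 1 member of 28 called, at 0.97 ± 0.24 (limma adjusted p 0.017), where 1.09% of probes were. Larger differences of acute minus chronic were not called for Cd86 (1.30 ± 0.40, limma adjusted p 0.098) and Cd37 (1.11 ± 0.33, limma adjusted p 0.081).

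Cd44 read 0.12 and 0.07 in normal synovium, 1.42 and 1.38 in acute and 0.76 and 0.82 in chronic arthritis, so the 3 stages did not overlap. The acute difference of 1.30 ± 0.43 (limma adjusted p 0.04) was not called when any 1 array of either group was left out (1.28 to 1.33, adjusted p 0.16 to 0.21), and the chronic one of 0.69 ± 0.43 was not called (limma adjusted p 0.49). Cd81 read -0.57 and -0.48 in normal synovium and -0.17 and 0.08 in chronic arthritis, the third largest chronic difference at 0.48 ± 0.17 (limma adjusted p 0.092). The 2 other Cd53 probes rose in acute arthritis, by 2.61 ± 0.29 and 2.91 ± 0.29, where the chosen probe gave 0.25.

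Markers moved with the acute stage. Macrophage genes were higher for 4 of 7, neutrophil genes for 3 of 5 and fibroblast genes for 5 of 5. The mean of the macrophage genes was -0.17 and -0.09 in normal synovium, 1.28 and 1.24 in acute and 0.32 and 0.36 in chronic arthritis. The part of cell numbers in the result was not tested. The B cell members Cd79a, Cd79b and Cd72 had acute differences of -0.27, -0.42 and -0.15, none called in the fit over all arrays, and the first 2 were called lower in the fit of only the arrays compared.

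Fetal liver of day 14 is the main site of blood formation before birth, and adult liver is mostly hepatocytes. Here 14 members were higher and 5 lower, 19 of 28 where 61.2% of all probes were called (38.7% higher and 22.5% lower). The median was 0.46 over members and 0.19 over all probes. After centring of each array, which shifted all probes by -0.37, the split was 6 higher and 8 lower, and after quantile normalization, which shifted them by -0.24, 6 and 5. Cd24a stood apart from all the rest.

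Cd24a read 3.42 and 3.37 in fetal and -3.73 and -4.31 in adult liver, a difference of 7.42 ± 0.20 (limma adjusted p 2.3e-49). Fetal liver was its highest source of the 80 with a value, and postnatal liver of day 14 read -2.05 and -2.08. Cd34 read -0.06 and -0.23 in fetal and -2.32 and -2.92 in adult liver (2.48 ± 0.42, limma adjusted p 5.6e-07). For Cd34 the fetal value was unremarkable among sources and the adult liver was low.

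The same shape, near 0 in fetal and low in adult liver, was seen in Cd9, Cd248, Cd109 and Cd47. Cd9 read -0.05 and 0.06 against -2.05 and -2.19 (2.13 ± 0.17, limma adjusted p 3.5e-19). Cd248 read 0.16 and 0.08 against -1.29 and -2.02 (1.77 ± 0.32, limma adjusted p 2.3e-06), although its other probe gave -0.08. Cd109 read 0.06 and 0.12 against -1.33 and -1.90 (1.70 ± 0.39, limma adjusted p 0.00011). Cd47 read 0.05 and 0.04 against -0.99 and -1.40 (1.24 ± 0.21, limma adjusted p 2.9e-07), and its other probe gave 0.91. These 4 genes and Cd34 kept their call under both scalings.

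Lower in fetal liver were Cd72, with -1.58 and -1.86 against 0.01 and -0.25 (-1.60 ± 0.40, limma adjusted p 0.00036), and Cd86, with -1.08 and -1.42 against 0.22 and 0.47 (-1.59 ± 0.40, limma adjusted p 0.00047). Cd44 read -0.48 and -0.73 against 0.79 and 0.57 (-1.28 ± 0.43, limma adjusted p 0.0082), Cd81 -0.39 and -0.27 against 0.35 and 0.32 (-0.67 ± 0.17, limma adjusted p 0.0004) and Cd1d1 -0.41 and -0.22 against 0.09 and 0.16 (-0.44 ± 0.17, limma adjusted p 0.017). Fetal liver was the lowest source of all for Cd72. Cd44 was not called without the second fetal array (-1.15) or the first adult one (-1.17), nor Cd1d1 without the first fetal (-0.35) or the second adult array (-0.41).

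The other 8 higher members (Cd151, Cd247, Cd2ap, Cd55, Cd59a, Cd68, Cd79b and Cd84, at 0.48 to 0.78) were called under neither scaling. The other probes of Cd2ap gave -1.88 and -1.74, and that of Cd84 -0.75. In fetal liver 5 of 5 erythroid and platelet genes, 5 of 5 neutrophil genes and 5 of 5 fibroblast genes were higher. The mean of the erythroid and platelet genes was 2.51 and 2.55 there against -0.42 and -0.70.

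Folic acid at toxic dose injures kidney tubules. The injured FVB/N kidney had 4 members higher than adult kidney of unstated strain and 0 lower, where 8.88% of all probes were called (5.83% higher and 3.04% lower), with a median of 0.05 over members and 0.09 over all probes. Strain and injury cannot be told apart in this pair. Cd24a, Cd2ap, Cd68 and Cd151 were higher.

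Cd24a read -0.55 and -0.36 in adult and 0.97 and 1.06 in injured kidney (1.47 ± 0.20, limma adjusted p 1.5e-08). The injured kidney lay below fetal kidney of day 18.5 (1.89) and that of day 2 (1.40) for this gene. Cd2ap, an adaptor protein needed at the slit diaphragm of podocytes, read -0.18 and -0.12 against 1.11 and 1.09 (1.25 ± 0.21, limma adjusted p 3.6e-06), but its other probes gave -0.69 and 0.40, neither called. Cd151 read -0.33 and -0.30 against 0.15 and 0.45 (0.62 ± 0.16, limma adjusted p 0.0032).

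Cd68 read 0.03 and -0.30 against 0.60 and 0.87 (0.87 ± 0.24, limma adjusted p 0.009), while 0 of 7 macrophage markers were called and their mean was -0.59 and -0.41 in adult and -0.51 and -0.56 in injured kidney. Each kidney group has 1 array of each letter code. Within AC, 1 array against 1, 4 members were called and within AF, likewise 1 against 1, Cd24a alone, with the spread taken from other sources. Cd68 differed by 0.57 within AC and 1.17 within AF. Without the second injured array Cd68 (0.74) and Cd151 (0.47) were not called, which left 2 members, nor was Cd68 without the second adult array (0.70). In a fit of the 4 arrays alone limma called 0 members (6 at an unadjusted p under 0.05).

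Involution is the regression of the gland after weaning, when milk-producing epithelium dies and stroma and leukocytes return. In involuting against lactating mammary gland 7 members were higher and 0 lower, where 43.1% of all probes were called (36.2% higher and 6.82% lower), a larger share than that of the members. The median was 0.16 over members and 0.23 over all probes, centring gave 6 higher and 3 lower, and quantile normalization, which shifted all probes by -0.28, gave 4 higher and 2 lower. Averaging the probes of each gene gave 9 higher and 0 lower.

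Cd9 read -1.21 and -1.03 in lactating and 0.99 and 0.96 in involuting gland (2.10 ± 0.17, limma adjusted p 3e-18). Cd1d1 read -0.59 and -0.57 against 0.37 and 0.46 (1.00 ± 0.17, limma adjusted p 3.6e-07), and Cd151 0.11 and -0.03 against 0.63 and 0.61 (0.58 ± 0.16, limma adjusted p 0.0013). These 3 kept their call under every alternative.

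Cd209b read -1.35 and -1.22 against -0.03 and 0.24 (1.39 ± 0.34, limma adjusted p 0.00051), Cd37 -0.97 and -1.33 against 0.02 and 0.34 (1.32 ± 0.33, limma adjusted p 0.00065) and Cd2ap -1.43 and -1.39 against -0.09 and -0.03 (1.36 ± 0.21, limma adjusted p 5.4e-08). None of these 3 was called after quantile normalization, and for Cd2ap another probe gave -0.33. The seventh, Cd81, differed by 0.42 ± 0.17 (limma adjusted p 0.035) and lost its call without any 1 of the 4 arrays (0.40 to 0.43). Lactating gland was the lowest source of all for Cd209b. The chosen probes of Cd53 and Cd47 were not called, but other probes of both genes rose. For Cd53, probe 576862 read -1.40 and -1.77 in lactating and -0.14 and 0.18 in involuting gland. Probe 620268 read -1.55 and -1.75 against 0.47 and 0.62, where the chosen one read 0.44 and 0.45 against 0.00 and -0.11. The other probe of Cd47 read -1.85 and -2.20 against -0.14 and -0.16. B cell markers (4 of 5), macrophage markers (3 of 7) and fibroblast markers (5 of 5) were also higher in the involuting gland, and their part in the result was not tested.

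Tumours of the small intestine were compared with normal duodenum and jejunum by source means, with the form of the array title as a term, since 6 of 10 tumours and 1 of 3 normal sources have titles with a number sign and the word vs, whose meaning is not stated. Of 27 members tested (Cd24a had too few values) 1 was called, Cd9, where 1.06% of all probes were (0.389% higher and 0.672% lower). The median difference was 0.14 over members and -0.04 over all probes. Cd9 ran from -0.00 to 1.42 with a median of 0.55 over 10 tumours, against -1.08, -1.48 and -0.33 in duodenum and the jejunum sources. All 10 tumours lay above all 3 normal sources, and the difference was 1.63 ± 0.32 (limma adjusted p 0.023). It was not called without duodenum (1.55, adjusted p 0.19) or without proximal jejunum (1.36, adjusted p 0.24).

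Cd44, a target of Wnt signalling in gut epithelium, ran from -0.15 to 2.51 with a median of 1.27 over the same tumours, against -0.58 to 0.15 in normal gut. Its difference of 1.38 ± 0.38 was not called (limma adjusted p 0.095), and 1 jejunal tumour overlapped the normal sources. The next largest differences, 0.57 each for Cd34 and Cd109, were not called either.

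In colon tumours against normal cecum and colon 1 member was called, Cd44, where 7.15% of all probes were (3.16% higher and 3.99% lower). The median difference was -0.06 over members and -0.03 over all probes. Cd44 stood at 1.04, 2.42, 1.41 and 1.47 in the 4 tumours and at 0.60, 0.46 and 0.20 in cecum, proximal and distal colon, with no overlap. The difference was 1.31 ± 0.33 (limma adjusted p 0.046). The last 2 tumours have the title form with vs, which no normal source of the large intestine has, so with form as a term the first 2 tumours alone set that difference. With no such term it was 1.16 (adjusted p 0.046). With it, the call did not hold when any 1 source was left out, except the first tumour. Leaving out the second gave 0.62 (adjusted p 0.099), leaving out the first 2.00, and the other 5 gave 1.20 to 1.40. Without the first tumour 5 members were called, 2 higher and 3 lower.

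Cd24a differed by 0.85 ± 0.48 and Cd2ap by -0.68 ± 0.29 in colon tumours, in the same fit, neither called by limma (adjusted p 0.33 and 0.20). The other 2 probes of Cd2ap gave -1.13 and -0.95 (limma adjusted p 0.0066 and 0.026). Cd9 was high in normal large intestine already, at 1.18, 1.07 and 2.32, and at 1.14 to 2.35 in its tumours. The tumour effect in colon minus that in small intestine was called by limma for 0 of 27 members tested, where 0.742% of probes were (4 members at an unadjusted p under 0.05). For Cd9 it was -1.43 ± 0.49 (limma adjusted p 0.18) and for Cd44 -0.19 ± 0.55 (limma adjusted p 0.88).

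**Figure D5:**
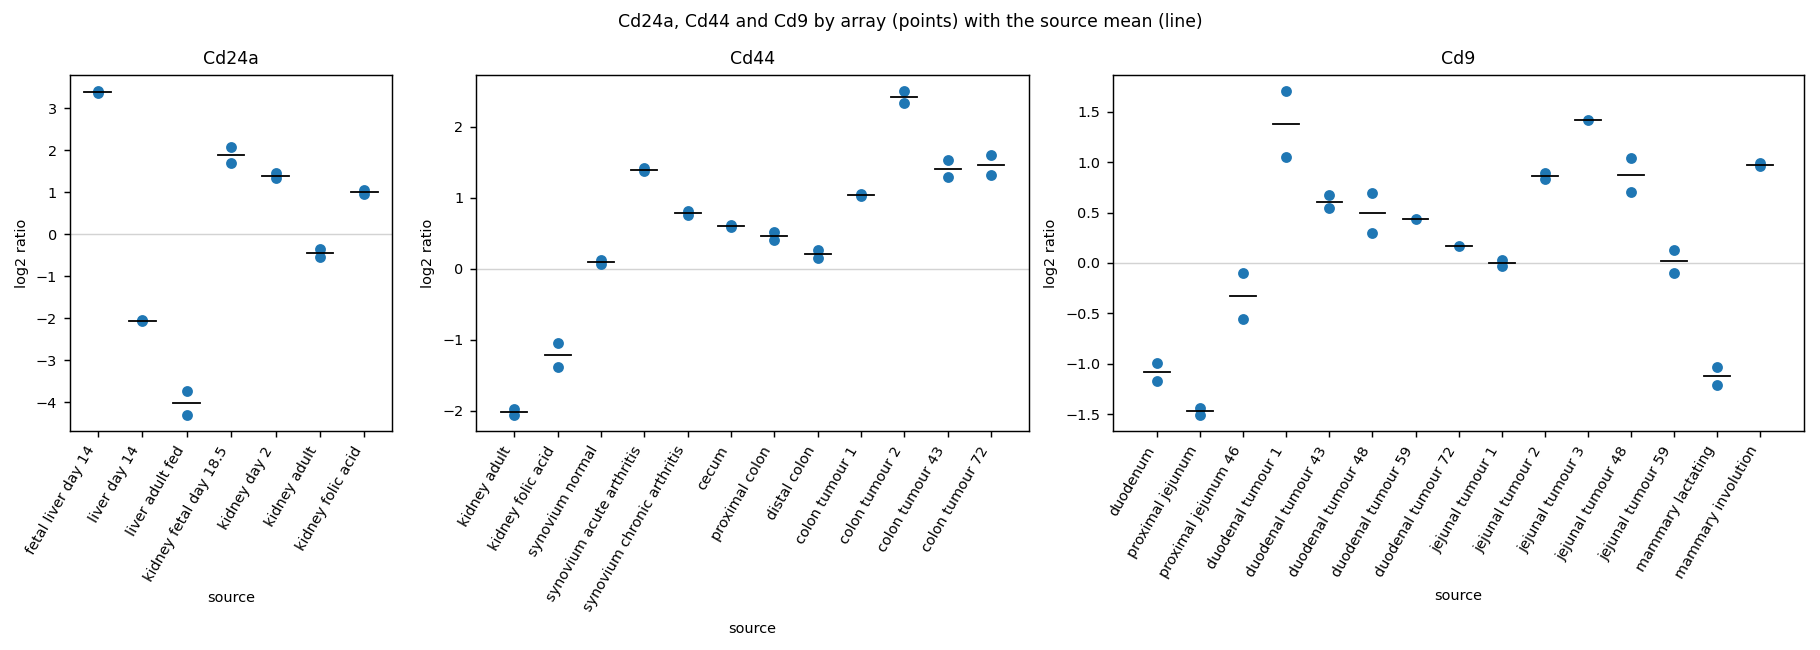
Log2 ratio of each array (points) with the source mean (line) for Cd24a in liver and kidney, Cd44 in kidney, synovium and large intestine, and Cd9 in small intestine and mammary gland. Cd24a falls from 3.40 in fetal to -4.02 in adult liver, and all 10 small intestine tumours lie above the normal sources for Cd9.

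In nervous tissue the called members were all lower. The 8 nervous sources were set against 35 other sources, called other organs here, which include the lymphoid ones. Most of the 8 are regions of the brain, and limma took each as an independent unit. Here 0 members were higher and 8 lower, where 20% of all probes were called (9.34% higher and 10.7% lower). The median was -0.40 over members and -0.13 over all probes. After quantile normalization 4 were lower. The lower members were Cd24a, Cd44, Cd96, Cd2ap, Cd86, Cd209b, Cd72 and Cd151. Dorsal root ganglion, the 1 peripheral source, stood apart from the 7 of brain and spinal cord in several.

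Cd24a was at -3.49 to -1.04 in the 7 central sources and at 2.82 in dorsal root ganglion (difference over all 8 of -1.83 ± 0.64, limma adjusted p 0.038). Cd44 was at -2.53 to -0.92 and at 1.38 in the ganglion (-1.19 ± 0.35, limma adjusted p 0.011), and Cd151 at -1.45 to -0.52 and at 0.74 (-0.62 ± 0.20, limma adjusted p 0.021). For these 3 genes the ganglion lay above all other nervous sources. Without the ganglion the differences were -2.50, -1.59 and -0.81, each called. After quantile normalization of all 8, Cd24a (-1.45) and Cd44 (-0.84) were not called.

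Cd96 (-0.92 ± 0.30), Cd2ap (-0.91 ± 0.30), Cd209b (-0.84 ± 0.26) and Cd72 (-0.82 ± 0.26) had adjusted p of 0.016 to 0.024 in limma, and Cd86 (-0.90 ± 0.33) one of 0.05. All 5 overlapped the other organs. Cd96, Cd209b, Cd72 and Cd86 were called higher in the lymphoid sources, which are part of the comparator here. No fit without those sources was run. Cd86 was not called without the ganglion (-0.87, adjusted p 0.083), where 8 members were again called lower. The other probes of Cd2ap gave -0.95 and -0.59. Dorsal root ganglion was the highest source of all 88 for Cd9, with arrays at 2.47 and 2.29, and for Cd55, with 2.40 and 2.13. The 2 ganglion arrays differed strongly for other members, such as Cd248 at -2.12 and 0.21, and correlated at 0.597 over all probes.

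The remaining patterns over sources are descriptions. Testis was the highest source for Cd209c (1.59 and 1.38), Cd84 (1.06 and 1.15) and Cd59a (1.02 and 0.81), and the lowest for Cd9 (-2.20 and -2.82). Cd34 was highest in lung of day 5 (1.77), in hair follicle in catagen (1.76) and in uterus on day 4.5 of pregnancy (1.74), and lowest in liver 6 h into regeneration (-3.84). Cd68 was highest in hair follicle in catagen (1.52), thymus (1.5) and acute arthritis (1.35). Cd44 was highest in the third jejunal tumour (2.51), followed by the second colon tumour (2.42), and lowest in striatum (-2.53). The third jejunal tumour has 1 array, whose median was the highest of all arrays (0.519, the lowest being -0.567). Cd2bp2 was highest in spleen (1.06), and Cd1d1 in cerebellum (0.78) and thymus (0.68), neighbours whose arrays overlap (0.80 and 0.77, 0.78 and 0.59). Centred by array, 21 of 28 members kept their highest source. Cd44 and Cd34 did not: Cd44 was then highest in the second colon tumour and Cd34 in hair follicle in catagen.

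As a description over 88 source means, which share arrays, reference RNA and cell mixtures, several members ran together. Among leukocyte genes these were Cd53 (chosen probe) with Cd79a at r 0.89, Cd37 with Cd6 at 0.82, Cd6 with Cd86 at 0.81, Cd72 with Cd86 at 0.80 and Cd37 with Cd79b at 0.79. Without the 6 lymphoid sources Cd37 with Cd79b fell to 0.41 and Cd79a with Cd79b from 0.75 to 0.02. Cd6 with Cd86 stayed at 0.74 and Cd53 (chosen probe) with Cd79a at 0.85. High correlations also joined Cd34, Cd47, Cd109 and Cd248 (Cd34 with Cd47 and Cd47 with Cd248 both at 0.83, Cd109 with Cd248 at 0.82). The second probes of Cd47 and Cd248 do not correlate with the chosen ones, so these correlations hold for single probes. Lower ones held for Cd9 with Cd24a at 0.64 (over 80 sources), Cd9 with Cd151 at 0.62 and Cd9 with Cd44 at 0.57, for Cd247 with Cd109 at 0.62, for Cd1d1 with Cd59a at 0.60 and for Cd300c2 with Cd248 at 0.57. Cd81 was like no other member, its highest r being 0.20 with Cd9.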

How the data were processed

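RNA of each source and a universal mouse reference RNA were hybridised together. The values are log2 ratios as deposited by the authors in 1 table: log base, direction, dyes, background correction and normalization were not given in the sources used here, and base and direction were read as the report states. The table was used as deposited. Members and gene lists were chosen with earlier results of these data known. Platform annotation named 1 gene for 7540 probes, several for 14 and none for 1180; all 28 member symbols are current.

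Sources were grouped by the labels. limma 3.58.1 (R 4.3.3; lmFit, eBayes) was fitted over all probes with values on at least 80% of units. Organ panels and tumours were fitted on 1 mean per source; pairs of sources on all arrays with 1 mean per source, sharing 1 spread. P-values were adjusted by Benjamini-Hochberg over all probes tested, with a threshold of 0.05. On simulated data for thymus against spleen (8638 probes), 73.7% of changes of 1 and 97% of changes of 2 log2 units were recovered, with 9 false calls among 178. The simulated noise was independent and normal, with the same spread in every source for a probe, and 200 probes were changed. These rates may therefore not hold for the data. The values come from arrays, so their number limits the precision. Described with values were up to 6 members per direction with the largest called differences, and the 3 largest where fewer than 3 were called; other probes were given where their sign differed. Markers moving with a result were listed for 14 cell types. Of these lists, mammary epithelium and adipocyte had no gene measured, and T cell and hepatocyte had 1 each. Alternatives were centring, quantile normalization, averaged probes, title code as a term, complete probes, only the arrays compared, and leaving out arrays or sources. Descriptions were made with pandas 2.3.3 and numpy 2.4.6 under Python 3.11.15, figures with matplotlib 3.10.9.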

Additional observations from a re-analysis of the deposited data

Results flagged for a closer look

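For genes called in the comparisons of source groups, 24 groups of sources were looked at for a value apart from the rest, and 4 were found. The cut-off gives about 1 in 20 by chance where values are independent and normal. These groups share sources, and 3 of the 4 finds are the same source, so no excess over chance can be read from the count. Cd209b was at 3.02 in unstimulated lymph node, where the other 4 lymphoid and blood sources lay between 0.51 and 0.71. Dorsal root ganglion stood apart from the other 7 nervous sources in 3 genes: Cd24a at 2.82 (others -3.49 to -1.04), Cd44 at 1.38 (others -2.53 to -0.92) and Cd151 at 0.74 (others -1.45 to -0.52). The effect of arthritis on Cd68 differed between the stages, by 0.97 ± 0.24 for acute minus chronic (limma adjusted p 0.017). None of these was given an explanation.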

How the results depend on the processing

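Of 98 called gene differences, 40 kept direction and call under every alternative run. Quantile normalization gave 9 called members in the lymphoid comparison (14 in the report), 4 in the nervous one (8), 6 in acute (3, all higher in both) and 2 in chronic arthritis (0) and 11 in fetal liver (19). Array centring gave 0 in colon tumours (1). Probes without gaps gave 1 in acute arthritis and 12 in fetal liver, with fewer members tested. A fit of only the arrays compared gave 7 in blood (13), 2 in lymph node (9), 14 in acute arthritis (9 higher, 5 lower) and 2 in chronic arthritis, 0 in kidney (4) and 19 in mammary gland (7), and arrays of code AF alone 1 in kidney. Averaging probes turned Cd53 in blood to 0.31 and Cd2ap in fetal liver to -1.02. Without lymphoid sources 17 of 28 members kept their most like member. Leaving out 1 array or source gave 0 to 1 in small intestine tumours, 0 to 5 in colon tumours, 12 to 19 in thymus, 7 to 10 in blood and 2 to 4 in kidney. Leaving out jejunal tumour 3, dorsal root ganglion or the second spleen array (the last in the lymphoid comparison) was chosen after seeing the data, as was dropping the title form term, which left 1 call in both tumour comparisons. The causes were not tested. Tumours of different gut segments share numbers in the labels (1, 2, 43, 48, 59 and 72), and whether a number marks a mouse is not stated. With tumour number as a replicate block, added after seeing the data, 1 member was called in small intestine tumours, Cd9 (1.64, adjusted p 0.03), and 0 of 27 in the difference of tumour effects between colon and small intestine. Tumours of the same number correlated at -0.673 to 0.34 in the residuals of the 3 small intestine pairs. In the other comparisons no paired analysis was possible because no such number was shared. Signal over background is unknown here.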
